A study of Arabidopsis thaliana with 6 samples.

Results

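The FLC clade is a family of 6 Arabidopsis thaliana genes: FLC (AT5G10140), FLM (AT1G77080, also called MAF1), MAF2 (AT5G65050), MAF3 (AT5G65060), MAF4 (AT5G65070) and MAF5 (AT5G65080). All transcript rows of these genes in the deposited table were taken, whatever their values, which gave 28 of the 45666 transcripts and 6 of the 27947 genes listed. In the table's coordinates, which match TAIR10.1, FLM lies on chromosome 1 (28955483 to 28960234), FLC on chromosome 5 (3173382 to 3179448, minus strand) and the MAF2 to MAF5 cluster on chromosome 5 (25982254 to 26002619). A gene's level is the sum of the FPKM of its rows (fragments scaled by transcript length and by the library's total), and a transcript's share is its FPKM as a percent of that sum. RNA was sequenced from the cdc5 mutant (3 libraries) and from the wild type Col-0 (3 libraries), with rosette leaves given as the tissue of both. The labels name no allele, age, growth condition or treatment. Titles of the mutant libraries end in 1 to 3, read here as replicate numbers although they can also be read as allele names. The labels do not say whether each library is a separate plant or pool, and the p-values therefore reflect spread among these libraries that may be technical. CDC5 is a MYB-related protein of a complex that works with the spliceosome, and the series title ties it to flowering through transcription and splicing of FLC, SEF and the MAF genes.

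Proteins of the clade are MADS-domain transcription factors, most of which delay flowering. They bind DNA together with the related protein SVP and keep the flowering genes FT and SOC1 low. FLC is the gene that vernalization silences, FLM and MAF2 take part in the response to ambient temperature, and MAF2 to MAF5 lie next to each other in a tandem cluster. The first exon of each gene encodes most of the DNA-binding MADS domain, and later exons encode the parts through which the proteins pair. FLM is best known for a pair of protein forms that differ in the use of exon 2 (the beta form) or exon 3 (the delta form). SVP, AGL16, FT, TSF, SOC1, FD, SPL15, AGL24, SEP3 and TEM1 were followed as partners and targets of the clade.

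The sequence around 1 splice site of the clade is shown because MAF2.5, the transcript that uses its downstream acceptor in MAF2, was the only MAF2 transcript to pass the test. Exon 4 of MAF2 and MAF3 has a pair of acceptors 33 bases apart, so that use of the downstream acceptor drops 11 codons and keeps the reading frame. The lines give the last 20 bases of the intron in lower case, the 33 bases between the acceptors in capitals and the next 7 bases of the exon, 5′ to 3′ on the gene's strand, from the TAIR10.1 genome.
MAF2 (chr5:25985069-25985128, plus strand): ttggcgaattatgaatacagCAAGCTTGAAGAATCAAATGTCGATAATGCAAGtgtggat
MAF3 (chr5:25990064-25990123, plus strand): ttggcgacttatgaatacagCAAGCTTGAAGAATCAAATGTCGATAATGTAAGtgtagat
FLM (chr1:28958725-28958784, plus strand): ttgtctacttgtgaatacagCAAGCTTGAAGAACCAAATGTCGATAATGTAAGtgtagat
FLC (chr5:3175234-3175293, minus strand): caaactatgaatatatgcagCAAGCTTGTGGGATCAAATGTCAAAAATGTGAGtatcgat
MAF4 (chr5:25995178-25995237, plus strand): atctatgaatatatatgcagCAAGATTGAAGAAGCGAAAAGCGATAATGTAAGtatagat
MAF5 (chr5:26001002-26001061, plus strand): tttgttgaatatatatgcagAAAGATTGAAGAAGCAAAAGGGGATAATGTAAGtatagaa
The capitals end in AG, the letters of an acceptor, in all 6 genes. Of the 33 bases, 32 in MAF3, 31 in FLM and 26 each in FLC, MAF4 and MAF5 equal those of MAF2. Among the transcripts with a row, 1 of 5 in MAF2 and 1 of 3 in MAF3 start the exon at the downstream AG. No row of FLC, FLM, MAF4 or MAF5 does.

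The exon pair that separates the beta and delta forms of FLM is shown as the best known splice choice of this family. Capitals mark the exon and lower case the 10 intron bases on either side.
FLM exon 2 (chr1:28958324-28958401, plus strand): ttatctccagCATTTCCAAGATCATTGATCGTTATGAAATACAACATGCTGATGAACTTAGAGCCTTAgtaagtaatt
FLM exon 3 (chr1:28958446-28958511, plus strand): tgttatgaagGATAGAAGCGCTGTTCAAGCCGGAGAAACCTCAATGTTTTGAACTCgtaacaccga

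Markers went against a pure rosette leaf in all 6 libraries. The 4 leaf genes (RBCS1A, RBCS3B, LHCB1.3 and RCA) summed to between 11880 and 12110 FPKM in cdc5 and between 9915 and 11950 in Col-0, while the floral organ genes AP1, AP3, PI, AG, SEP1, SEP2 and SEP3 each stood above 47 FPKM in every library and the floral regulator LFY between 1.66 and 3.17. Together the 8 floral genes summed to 675.3, 674.6 and 674.7 FPKM in the cdc5 libraries, against 826.3, 789.9 and 838.9 in the Col-0 libraries, with no overlap. Most of that difference lay in PI and AP3. PI stood at 110.1, 135.7 and 106.9 FPKM in cdc5, against 205, 153.5 and 213.3 in Col-0, and AP3 at 103.9, 103.5 and 104.9 in cdc5, against 139.3, 143.6 and 137.6 in Col-0. AG and SEP2 also lay lower in every cdc5 library, while AP1, SEP1, SEP3 and LFY overlapped. Of the leaf genes, RBCS1A and RCA lay higher in every cdc5 library, as did 38.1% of all genes tested. RBCS1A stood at 4752, 4753 and 4930 FPKM in cdc5, against 3483, 4250 and 3618 in Col-0. RCA stood at 1390, 1379 and 1408 in cdc5, against 1335, 1291 and 1292 in Col-0. RBCS3B and LHCB1.3 overlapped. The floral genes are not markers of a rosette leaf, and the part of their lower sum in the clade's levels was not tested. In bulk samples, fewer cells of a type and less RNA per cell cannot be told apart. The CDC5 transcript itself stood at 21.79, 21.29 and 20.96 FPKM in cdc5, against 38.24, 37.01 and 36.08 in Col-0. Estimated depth was 19.96 to 25.45 M fragments in cdc5 and 19.1 to 23.74 M in Col-0, so 3 fragments on 1 kilobase equal 0.118 to 0.157 FPKM.

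At the gene level, 4 of the 6 clade genes were lower in cdc5 and none was higher, at an adjusted p under 0.05 over all genes (limma, on log2 of FPKM + 1). Over all 19778 genes that averaged 1 FPKM or more, 22.4% were lower and 33.3% higher by the same test. Under cyclic loess scaling these shares were 26.0% lower and 26.3% higher, and with an adjustment for gene length 25.2% lower and 28.3% higher. The same 4 genes had cdc5 libraries that all lay below those of Col-0, as did 25.5% of all genes tested, while 38.1% had them all above. The median log2 fold change was -0.36 over the 6 clade genes and 0.062 over all genes tested. The clade's summed level was 84.51, 78.96 and 80.4 FPKM in cdc5, against 102.3, 100.3 and 98.53 FPKM in Col-0, or 81.0% of the Col-0 mean.

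FLC and MAF4, the genes of lowest level, were lower by the largest fold. FLC stood at 1.675, 1.074 and 1.076 FPKM in cdc5, against 2.297, 3.194 and 3.139 FPKM in Col-0, so its cdc5 mean was 44.3% of the Col-0 mean. That is a log2 fold change of -0.77 (SE 0.14) with a limma adjusted p of 0.0018. MAF4 stood at 1.013, 0.687 and 0.247 FPKM in cdc5, against 2.257, 2.936 and 3.067 FPKM in Col-0. Every Col-0 library was more than double the highest cdc5 library, with a log2 fold change of -1.21 (SE 0.18) and a limma adjusted p of 0.00054. The difference in means was -2.10 FPKM for MAF4 and -1.98 FPKM for its row AT5G65070.1. That row was listed at 0, 0.157 and 0 FPKM in cdc5, and a value of 0 in this table can be a failed estimate. The summed level of MAF4 and its share of the clade's sum carry the same limit. Each fold is on the log2(FPKM + 1) scale and understates the change of genes this low.

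FLM and MAF2, the genes of highest level, were lower by a smaller fold. FLM stood at 27.65, 21.75 and 25.88 FPKM in cdc5, against 33.2, 32.67 and 31.12 FPKM in Col-0. MAF2 stood at 34.09, 29.89 and 30.57 FPKM in cdc5, against 41.83, 37.61 and 41.88 FPKM in Col-0. For both genes all cdc5 libraries lay below all Col-0 libraries, and the cdc5 means were 77.6% and 77.9% of those of Col-0. Log2 fold changes were -0.36 for FLM (SE 0.081, limma adjusted p = 0.0055) and -0.35 for MAF2 (SE 0.062, adjusted p = 0.0014).

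MAF3 and MAF5 did not pass the test, and their libraries overlapped. MAF3 stood at 12.11, 14.76 and 14.32 FPKM in cdc5 and at 12.58, 14.73 and 9.62 in Col-0 (log2 fold change 0.16, SE 0.15, limma adjusted p = 0.40). MAF5 stood at 7.96, 10.8 and 8.31 FPKM in cdc5 and at 10.14, 9.21 and 9.70 in Col-0 (log2 fold change -0.10, SE 0.10, limma adjusted p = 0.43). Only cdc5 replicate 2 lay above the Col-0 libraries for MAF5, and without that library MAF5 passed (log2 fold change -0.22, limma adjusted p = 0.034). In that library 5.845 of the 10.8 FPKM came from AT5G65080.1, a row of 354 bases that stood at 0.257 to 0.642 FPKM elsewhere. The other rows, AT5G65080.2 and AT5G65080.3, were lower in every cdc5 library. AT5G65080.1 has no stretch of the read length of its own, so the summed level of MAF5 there depends on how fragments were divided among its rows.

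**Figure D1:**
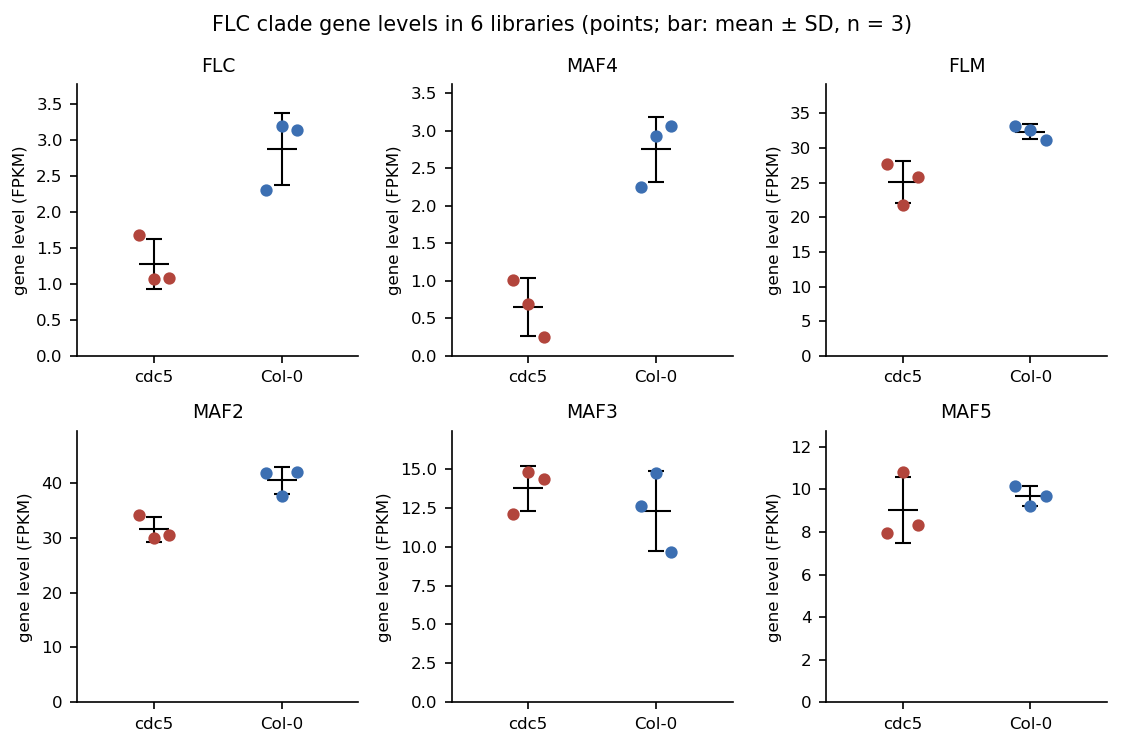
Gene level in FPKM (vertical axes, each from 0) of the 6 FLC clade genes in the cdc5 and Col-0 libraries. Points are libraries and bars are the mean ± SD of 3. The genotypes separate for FLC, MAF4, FLM and MAF2 and overlap for MAF3 and MAF5.

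By level per length, the genes kept the order MAF2, FLM, MAF3, MAF5, FLC and MAF4 in the means of both genotypes. In cdc5 no neighbours in that order overlapped. In Col-0 MAF3 overlapped MAF5, and FLC overlapped MAF4. MAF2 made up 38.7% ± 1.39 of the clade's sum in cdc5 and 40.3% ± 2.57 in Col-0 (SD, n = 3 each). MAF4 made up 0.792% ± 0.45 of it in cdc5 and 2.75% ± 0.479 in Col-0, and FLC 1.56% ± 0.366 in cdc5 and 2.87% ± 0.542 in Col-0 (SD, n = 3 each). The shares of FLM, MAF2, MAF3 and MAF5 in the clade's sum overlapped between the genotypes.

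Of the 28 transcripts, 16 averaged 1 FPKM or more across the libraries and were tested. Of these, 3 were lower in cdc5 and 1 was higher, against 13.2% lower and 17.8% higher of all 27441 transcripts tested. The median log2 fold change was -0.34 over the 16 tested transcripts of the clade and 0.066 over all transcripts tested. The other 12 had means of at most 0.941 FPKM in cdc5 and 0.969 FPKM in Col-0. The authors' deposited table marks 7 of the 28 as significant (4 higher and 3 lower in cdc5), beside 12.2% of all transcripts. Below, a number after the gene's name is the transcript's suffix in the table, so FLM.4 is AT1G77080.4.

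FLC has a pair of rows, and FLC.1, the form of 7 exons, held nearly all of the gene's level. FLC.1 stood at 1.675, 1.074 and 0.960 FPKM in cdc5, against 2.297, 3.104 and 2.843 in Col-0, without overlap. The log2 fold change of -0.75 (SE 0.18) passed with a limma adjusted p of 0.028, a call that was lost without cdc5 replicate 2 (adjusted p = 0.084), cdc5 replicate 3 (0.078), Col-0 replicate 2 (0.083) or Col-0 replicate 3 (0.084). FLC.3, the form of 8 exons, was listed at 0, 0 and 0.117 FPKM in cdc5 and at 0, 0.090 and 0.296 in Col-0. Its share of FLC was 10.8% in cdc5 replicate 3, close to the 9.44% of Col-0 replicate 3, and 0 to 2.83% elsewhere. FLC lies inside the antisense transcript AT5G01675, which stood at 0.286, 0 and 0.456 FPKM in cdc5 and 0.360, 0.367 and 0.385 in Col-0, and whether fragments were counted by strand was not stated, so reads of the overlap cannot be told apart.

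The main transcript of MAF4 was nearly absent from the cdc5 values. MAF4.1, the form of 7 exons and 201 codons (stop included), was listed at 0, 0.157 and 0 FPKM in cdc5, against 1.646, 2.523 and 1.92 in Col-0, where it made up 72.9%, 85.9% and 62.6% of the gene. It passed as lower, with a log2 fold change of -1.52 (SE 0.21) and a limma adjusted p of 0.0047. A value of 0 in this table can be a failed estimate, and MAF4.1 has 1 stretch of 150 bases (the read length) that no other clade row contains. The other 4 rows, MAF4.3 to MAF4.6, ranged from 0 to 0.590 FPKM in cdc5 and from 0 to 0.494 in Col-0. A different row of MAF4 was the highest in each cdc5 library: MAF4.4 in replicate 1, MAF4.6 in replicate 2 and MAF4.3 in replicate 3. In cdc5 no MAF4 row stood above 0.590 FPKM, and 3 fragments on these rows equal 0.0944 to 0.206 FPKM, by row and library. Shares within MAF4 therefore could not be read in cdc5.

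FLM has 10 rows, of which FLM.2 (exon 3, the delta type), FLM.4 (exon 2, the beta type), FLM.8 and FLM.11 were tested. FLM.2 led the gene in 5 of 6 libraries, with 14.22, 12.99 and 18.69 FPKM in cdc5 and 17.71, 21.36 and 10.53 in Col-0. FLM.4 stood at 4.742, 1.953 and 2.156 FPKM in cdc5 and at 1.692, 5.455 and 14.64 in Col-0, so that Col-0 replicate 3 was more than 8 times Col-0 replicate 1. FLM.8, which holds an 81-base intron and uses exon 2, stood at 5.571, 2.725 and 2.151 FPKM in cdc5 and at 6.447, 2.732 and 3.461 in Col-0. FLM.11, which holds a 372-base intron, stood at 1.228, 1.77 and 1.692 FPKM in cdc5 and at 5.411, 2.323 and 0.951 in Col-0. All 4 overlapped between the genotypes and missed the threshold (limma adjusted p from 0.44 to 0.88). FLM.2, FLM.4 and FLM.11 have no 150-base stretch of their own, and the sources used here do not say how fragments were divided among them.

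The choice between the beta and delta exons of FLM did not separate the genotypes. Of the transcripts that join exon 1 to exon 2 or exon 3, those with exon 2 made up 44.7%, 32.2% and 24.2% in cdc5, against 41.8%, 32.9% and 62.6% in Col-0. The means were 33.7% ± 10.3 in cdc5 and 45.8% ± 15.3 in Col-0 (SD, n = 3 each; two-sided exact permutation p = 0.4). The difference of -12.1 percentage points was smaller in size than the SD of Col-0.

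Of the FLM rows under 1 FPKM, 3 were higher in every cdc5 library. Over all 45666 transcripts listed above 0 in any library, 22.6% were higher in that way and 14.8% lower. FLM.3, a short form of 3 exons that starts inside the first intron and holds the 335-base intron, stood at 1.274, 1.064 and 0.485 FPKM in cdc5, against 0.272, 0.398 and 0.380 in Col-0. FLM.6 stood at 0.371, 0.171 and 0.136 FPKM in cdc5, against 0.092, 0.061 and 0.024 in Col-0, and FLM.7 at 0.058, 0.134 and 0.099 in cdc5, against 0.003, 0.031 and 0.006 in Col-0. FLM.6 and FLM.7 keep the first intron and are 4099 and 4018 bases long, so that 3 fragments give 0.0288 to 0.0383 FPKM in FLM.6 and 0.0293 to 0.0391 in FLM.7. By that measure FLM.7 was at the level of a few fragments or less in every Col-0 library. The authors' deposited table marks all 3 as higher, with folds of 2.69, 3.82 and 7.28 and q-values of 0.032, 0.029 and 0.0073. None reached the mean of 1 FPKM needed for the limma test, and without that filter none passed (limma adjusted p = 0.14 for FLM.3, 0.17 for FLM.6 and 0.099 for FLM.7). FLM.9, FLM.10 and FLM.12, the remaining rows, averaged 0.121 to 0.265 FPKM in cdc5 and 0.153 to 0.686 in Col-0, and each overlapped. FLM.6, FLM.7, FLM.9 and FLM.10 all keep the first intron, and none has a stretch of the read length of its own. Their separate levels, with the higher values of FLM.6 and FLM.7, therefore depend on how fragments were divided among rows, which is not stated.

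Of the 5 MAF2 rows, 1 passed the test. MAF2.5, the form of 7 exons that uses the downstream acceptor of exon 4, stood at 6.332, 7.366 and 6.077 FPKM in cdc5, against 14.76, 11.58 and 15.57 in Col-0, so every cdc5 library was lower (log2 fold change -0.97, SE 0.13, limma adjusted p = 0.0046). Its share of MAF2 was 21.0% ± 3.19 in cdc5 and 34.4% ± 3.29 in Col-0 (SD, n = 3 each). Between the means, MAF2.5 fell by 7.38 FPKM and the whole gene fell by 8.92 FPKM.

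The other MAF2 rows did not pass the test. MAF2.2, which ends inside the last intron of MAF2.3, stood at 15.58, 13.28 and 11.6 FPKM in cdc5 and at 13.95, 10.25 and 12.94 in Col-0. Its share of MAF2 did not overlap, at 45.7%, 44.4% and 37.9% in cdc5 against 33.3%, 27.2% and 30.9% in Col-0. MAF2.4, which keeps the whole first intron, stood at 3.904, 4.192 and 4.305 FPKM in cdc5, against 2.827, 3.724 and 2.134 in Col-0 (log2 fold change 0.42, SE 0.17, limma adjusted p = 0.13). MAF2.1, which skips the exon before last, was listed at 7.337, 0 and 7.301 FPKM in cdc5 and at 7.926, 9.582 and 6.96 in Col-0. MAF2.3, the form with all exons and the upstream acceptor, stood at 0.940, 5.049 and 1.29 FPKM in cdc5 and at 2.366, 2.477 and 4.28 in Col-0. The 0 of MAF2.1 and the high value of MAF2.3 fell in the same library, cdc5 replicate 2, and MAF2.3 has no 150-base stretch of its own.

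In MAF3, whose summed level did not pass the test, 1 of 3 rows was higher. MAF3.2, the form of 7 exons with the downstream acceptor, led in every library with 8.363, 11.67 and 11.03 FPKM in cdc5 and 11.33, 13.08 and 7.781 in Col-0 (log2 fold change -0.031, SE 0.21, limma adjusted p = 0.93). MAF3.3, which keeps the last intron, stood at 2.325, 2.087 and 2.889 FPKM in cdc5, against 0.857, 0.251 and 0.718 in Col-0. The lowest cdc5 library was more than double the highest of Col-0, with a log2 fold change of 1.11 (SE 0.21) and a limma adjusted p of 0.014. MAF3.1, which has every exon and the upstream acceptor, averaged 0.939 ± 0.519 FPKM in cdc5 and 0.969 ± 0.516 in Col-0 (SD, n = 3 each).

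MAF5 has 3 rows, and cdc5 replicate 2 stood apart in their shares. MAF5.3 stood at 4.673, 3.481 and 4.873 FPKM in cdc5, against 5.319, 5.168 and 5.968 in Col-0, and MAF5.2 at 2.836, 1.476 and 2.798 in cdc5, against 4.565, 3.511 and 3.14 in Col-0. Both were lower in every cdc5 library, but neither passed the test (limma adjusted p = 0.17 for MAF5.3 and 0.16 for MAF5.2). MAF5.1, a form of 5 exons with no first exon, stood at 0.455, 5.845 and 0.642 FPKM in cdc5 and at 0.257, 0.528 and 0.591 in Col-0. It made up 54.1% of MAF5 in cdc5 replicate 2 and at most 7.72% elsewhere, and it has no 150-base stretch of its own.

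**Figure D2:**
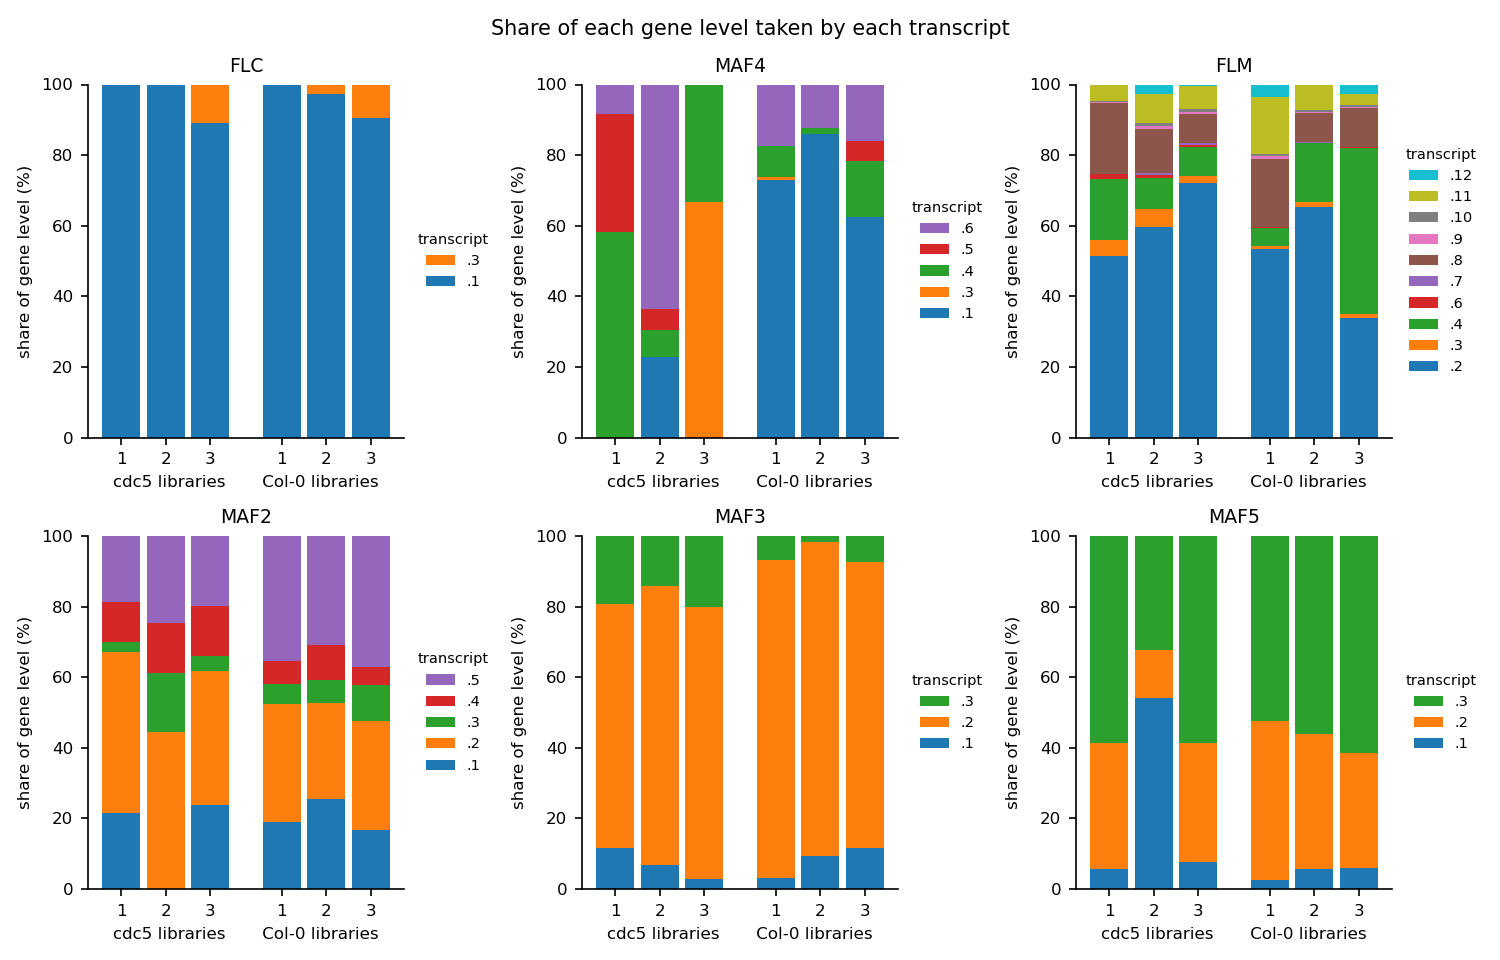
Share of each gene's level, in percent, taken by each of its transcripts (colours, named by suffix) in the 3 cdc5 libraries (left) and 3 Col-0 libraries (right) of each panel. MAF2.5 and MAF3.2 take less and MAF3.3 more in each cdc5 library. MAF4.1 is at 0 or 22.8% in cdc5 (from rows of at most 0.590 FPKM). Replicate 2 of cdc5 stands apart for MAF2.1 and MAF5.1.

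Isoform usage was tested in the 4 clade genes with at least 2 tested transcripts. The test compares the log2 fold change of each tested row with that of the gene's other tested rows. Rows under the filter, such as MAF3.1, FLM.3, FLM.6 and FLM.7, did not enter, so it is not a test of the shares given below. MAF3 passed (limma diffSplice, adjusted p = 0.035), while FLM (0.84), MAF2 (0.41) and MAF5 (0.20) did not, against 21.8% of the 5456 genes tested over the whole table. The call of MAF3 was lost on leaving out any library but Col-0 replicate 3 (adjusted p = 0.059 to 0.12), and under cyclic loess scaling (0.054). MAF2 passed without cdc5 replicate 2 (adjusted p = 0.034), the library in which MAF2.1 is listed at 0. Over the 28 transcript shares, 6 were higher in every cdc5 library than in any Col-0 library (FLM.3, FLM.6, FLM.7, MAF2.2, MAF2.4 and MAF3.3) and 3 were lower (MAF2.5, MAF3.2 and MAF4.1). Of these, the share of MAF4.1 in cdc5 rests on rows of at most 0.590 FPKM and could not be read. The shares of FLM.6 and FLM.7 rest on rows with no stretch of the read length of their own. Over all transcripts with a share, 14% were higher and 11.8% lower without overlap.

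Summed over all rows, those with the upstream acceptor of exon 4, which keeps the 33 bases shown in capitals, took a larger share in cdc5 in MAF2 and in MAF3. In MAF2 their share was 81.4%, 75.4% and 80.1% in cdc5, against 64.7%, 69.2% and 62.8% in Col-0. The means were 79.0% ± 3.19 in cdc5 and 65.6% ± 3.29 in Col-0, a difference of 13.4 percentage points. In MAF3 their share was 31.0%, 20.9% and 22.9% in cdc5, against 9.94%, 11.1% and 19.1% in Col-0, with means of 24.9% ± 5.32 in cdc5 and 13.4% ± 5 in Col-0 (SD, n = 3 each). The genotypes did not overlap in either gene, which gives the smallest p that 3 libraries against 3 allow (two-sided exact permutation p = 0.1). The rows behind these shares also differ at other splice sites. In MAF2 the difference lay in the level of MAF2.5, and in MAF3 in that of MAF3.3, the row that keeps the last intron. Between the rows that share every other splice site, a comparison added after the data were seen, the genotypes overlapped in both genes. MAF3.1 made up 14.6%, 7.87% and 3.45% of MAF3.1 and MAF3.2 together in cdc5, and 3.35%, 9.61% and 12.6% in Col-0. MAF2.3 made up 12.9%, 40.7% and 17.5% of MAF2.3 and MAF2.5 together in cdc5, and 13.8%, 17.6% and 21.6% in Col-0. Summed over all rows, MAF2 mostly used the upstream acceptor in both genotypes, and MAF3 mostly the downstream one. Between the matched MAF2 rows the downstream acceptor led instead, as MAF2.3 averaged 23.7% in cdc5 and 17.7% in Col-0. Over 3258 pairs of acceptors in all genes, the nearer one to the donor was higher without overlap in 13.6% and lower in 6.69%. In a limma fit over all 15237 splice choices, added after the data were seen, neither passed (adjusted p = 0.21 in MAF2 and 0.31 in MAF3).

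**Figure D3:**
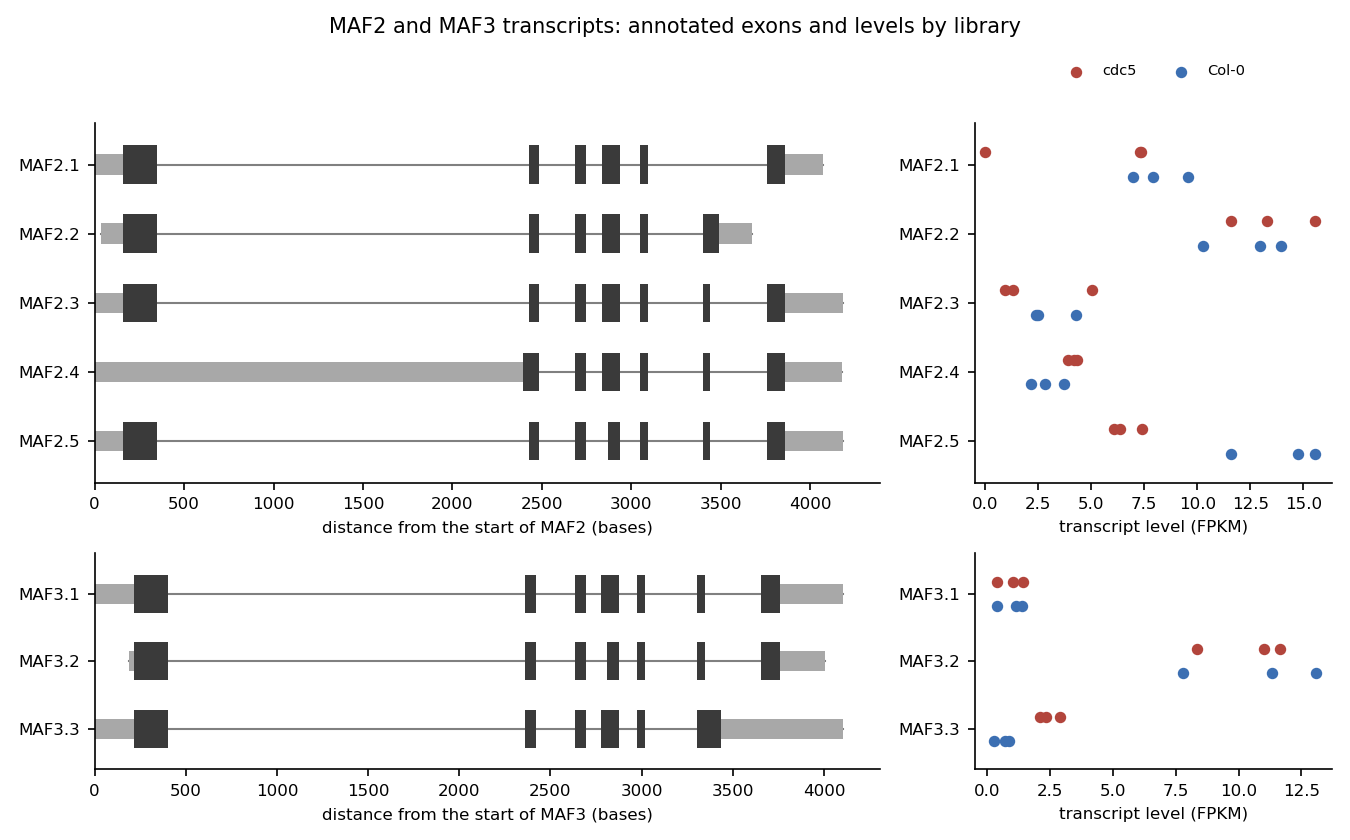
Annotated exons of the 5 MAF2 and 3 MAF3 transcripts (left; coding parts tall and dark, untranslated parts low and grey, distance from the gene's start in bases) and their levels in FPKM (right), cdc5 above Col-0 for each transcript. MAF2.5 and MAF3.2 have the shorter exon 4, MAF2.4 keeps the first intron and MAF3.3 the last one.

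Of 9 introns of the clade that some rows keep and others remove, 4 were kept more in every cdc5 library than in any Col-0 library (two-sided exact permutation p = 0.1 for each, the smallest possible) and none less. Over 7748 such introns of all genes, 29.5% were kept more and 2.66% less in that way, and the median log2 change of the ratio of kept to removed was 0.85, so most introns of this kind shifted the same way. The last intron of MAF3 (308 bases, chromosome 5, 25990656 to 25990963) was kept in 19.2%, 14.1% and 20.2% of MAF3 in cdc5, against 6.81%, 1.71% and 7.46% in Col-0. Its ends are printed here, with the first and last 2 bases of the intron in capitals.
MAF3 donor (chr5:25990647-25990666, plus strand): gctagccagGTgacaaaaac
MAF3 acceptor (chr5:25990953-25990972, plus strand): gtttcttacAGgtggggaag
MAF3.3, the only row that keeps it, has a coding sequence of 192 codons, against 197 codons in MAF3.1 (stop included in each).

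The first introns of FLM and MAF2, the longest of each gene, were among those kept more. The first intron of MAF2 (2081 bases, chromosome 5, 25982600 to 25984680) was kept in 11.5%, 14.02% and 14.08% of MAF2 in cdc5, against 6.76%, 9.90% and 5.10% in Col-0. That of FLM (2470 bases, chromosome 1, 28955864 to 28958333) was kept in 4.50%, 9.12% and 8.94% in cdc5, against 3.58%, 3.13% and 1.66% in Col-0, counted over transcripts that keep it or join exon 1 to exon 2. That count leaves out FLM.2 and FLM.12, which join exon 1 to exon 3, so these shares are larger than shares of the whole gene. Of the whole FLM level, the rows that keep it averaged 0.402% to 0.885% each in cdc5 and 0.041% to 0.501% each in Col-0. A 335-base intron of FLM (chromosome 1, 28958995 to 28959329) was kept in 4.62%, 5.03% and 1.88% in cdc5, against 0.850%, 1.22% and 1.25% in Col-0. The only row that keeps it is FLM.3, which starts inside the first intron and ends at 28959350, shortly after the 335-base intron. A kept intron and a transcript with its own start and end cannot be told apart in that row. The transcripts behind the FLM values averaged 0.593 FPKM in cdc5 and 0.388 in Col-0 for the first intron, and 0.941 FPKM in cdc5 and 0.350 in Col-0 for the 335-base intron.

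Of the 5 other introns, 3 in FLM and 2 in MAF4 overlapped between the genotypes. The 81-base intron of FLM was kept in 26.2%, 18.9% and 11.4% in cdc5 and 21.2%, 10.14% and 12.9% in Col-0. None of the 6 donor choices of the clade separated the genotypes, and 8 of its 10 acceptor choices overlapped, while 22.6% of donor choices and 19.3% of acceptor choices of all genes did separate them. In the fit over all splice choices none of the clade's 25 passed, with a lowest adjusted p of 0.11 (limma), and 8 had an unadjusted p under 0.05, beside 18.1% of all 15237. Several of the 25 rest on the same rows and are not separate measurements, as MAF3.3 sets both the kept intron and the acceptor share of MAF3. Over all genes that fit called 1.23% of kept introns, 1.07% of acceptor choices and 0.535% of donor choices.

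**Figure D4:**
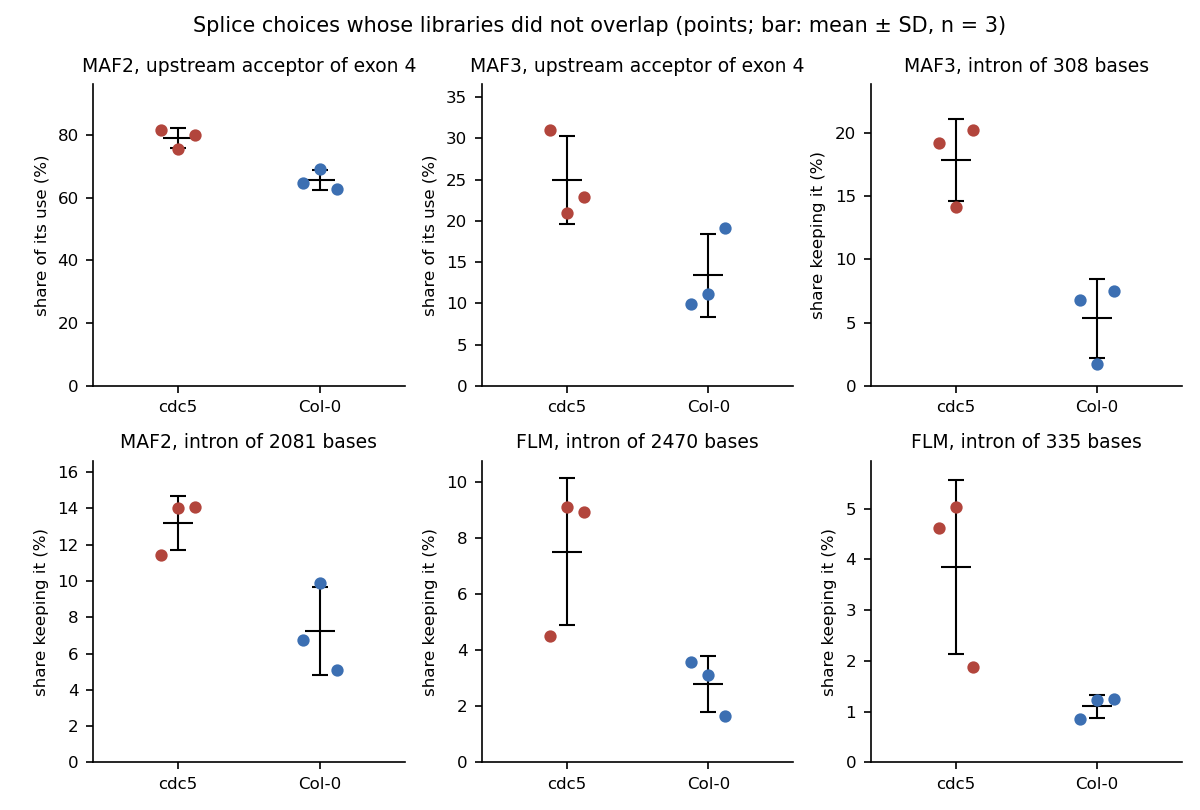
Share in percent (vertical axes, each from 0) of all rows with the upstream acceptor of exon 4 in MAF2 and MAF3, and of transcripts that keep a given intron of MAF3, MAF2 and FLM, by library (points), with mean ± SD of 3. In all 6 panels the cdc5 libraries lie above those of Col-0; these are the choices that did not overlap, out of 25, and MAF3.3 sets both MAF3 panels.

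Transcripts whose annotated coding sequence opens downstream of the first exon's start codon numbered 8 of 28. Of these, 5 (FLM.6, FLM.7, FLM.9, FLM.10 and MAF2.4) still contain the coding part of the first exon and run on into the first intron, and 3 (FLM.3, MAF4.6 and MAF5.1) do not contain it. In FLM the 5 such rows (FLM.3, FLM.6, FLM.7, FLM.9 and FLM.10) summed to 1.818, 1.711 and 1.074 FPKM in cdc5, against 0.775, 0.738 and 0.701 in Col-0. They made up 6.20% ± 1.89 of FLM in cdc5 and 2.28% ± 0.0459 in Col-0 (SD, n = 3 each), without overlap. The difference in means was 0.796 FPKM for this sum and 0.591 FPKM for FLM.3 alone, while FLM.9 and FLM.10 overlapped. The limits given above for FLM.3, and for rows without a stretch of their own, hold for the sum. No share over all genes was computed for rows of this kind. In MAF2 the row of this kind is MAF2.4, described above. In MAF4 (MAF4.6) and MAF5 (MAF5.1) the values overlapped. All 28 rows have coding sequences that differ from each other, and 11 keep at least 1 annotated intron.

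Of the 10 partners and targets, 9 were tested, 3 were lower in cdc5 and none was higher, at the same threshold and beside the same 22.4% lower and 33.3% higher of all genes. FT, the mobile signal that the clade represses, stood at 6.897, 6.145 and 7.204 FPKM in cdc5, against 11.04, 11.01 and 11.89 in Col-0 (log2 fold change -0.67, SE 0.071, limma adjusted p = 8.2e-05). SPL15, a promoter of flowering at the shoot tip, stood at 6.544, 5.698 and 7.908 FPKM in cdc5, against 11.6, 12.02 and 11.56 in Col-0 (log2 fold change -0.73, SE 0.098, limma adjusted p = 0.00029). For both, every cdc5 library lay below every Col-0 library.

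AGL24, a MADS-domain promoter of flowering, stood at 4.018, 3.838 and 3.991 FPKM in cdc5, against 4.275, 5.484 and 5.706 in Col-0 (log2 fold change -0.31, SE 0.10, limma adjusted p = 0.028). That call was lost on leaving out any library but Col-0 replicate 1 (adjusted p = 0.057 to 0.10) and with an adjustment for gene length (0.063). SEP3, a floral organ gene, stood at 135.8, 119.1 and 149.8 FPKM in cdc5 and at 145.8, 157.1 and 153.1 in Col-0, which overlap (log2 fold change -0.18, SE 0.080, limma adjusted p = 0.10). SEP3 passed without cdc5 replicate 3 (adjusted p = 0.010). SOC1, TEM1, FD, AGL16 and SVP did not pass, with adjusted p from 0.13 to 0.28. Of these, FD and SVP lay higher in every cdc5 library than in any Col-0 library, as did 38.1% of all genes tested. SOC1, TEM1 and AGL16 overlapped. SVP, the clade's partner, averaged 8.98 ± 0.224 FPKM in cdc5 and 8.22 ± 0.291 in Col-0 (SD, n = 3 each), a log2 fold change of 0.11 that became -0.0065 under cyclic loess scaling. TSF lay under the filter, at 0.071 to 0.353 FPKM in cdc5 and 0.305 to 0.678 in Col-0. The list's median log2 fold change was -0.15, beside 0.062 over all genes.

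**Figure D5:**
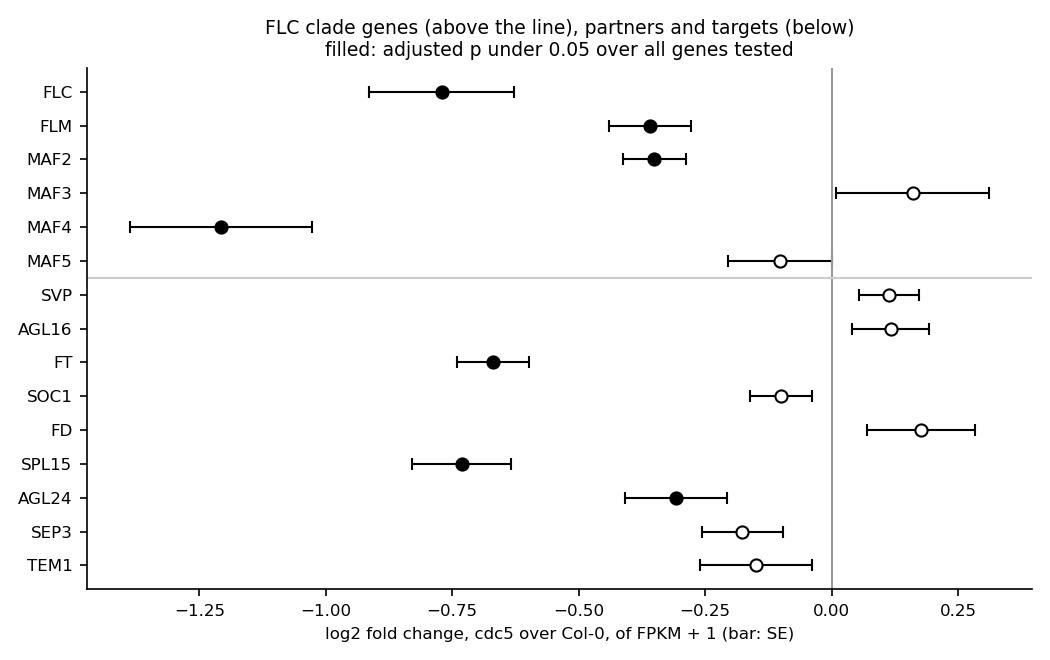
Log2 fold change of cdc5 over Col-0 on the log2(FPKM + 1) scale (horizontal axis; bars are standard errors) for the 6 clade genes, above the line, and the 9 tested partners and targets, below it. Filled points passed the test over all genes: FLC, FLM, MAF2 and MAF4 above the line and FT, SPL15 and AGL24 below it, all to the left of 0.

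The genes most like FLC over the 6 libraries, by Pearson's r of log2(FPKM + 1), were RAP2-10 (r = 0.9985), an ethylene-responsive transcription factor, HVA22A (r = 0.9972) and AT3G62790 (r = 0.9963), annotated as an NADH dehydrogenase protein. RAP2-10 stood at 5.592, 4.546 and 4.613 FPKM in cdc5, against 6.634, 7.817 and 8.051 in Col-0. Like FLC, it was highest of cdc5 in replicate 1 and lowest of Col-0 in replicate 1. With 6 points in 2 groups such a value is a description only, and 388 of the 19772 other genes tested had an r above 0.95.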

How the data were processed

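The deposited file lists, for each transcript and each of 6 libraries, an FPKM value computed by the authors, and beside it the authors' fold (the ratio of mean FPKM, cdc5 over Col-0), its log2, and a p-value and q-value from a test the table does not name. Per the submitters' processing notes, HISAT2 2.0.4, cutadapt 1.9, edgeR, DESeq2 and StringTie 1.3.4d were among the tools (no roles are given), with a mouse build that cannot apply. Per the labels' protocols, libraries were made from oligo(dT)-selected RNA with dUTP strand marking and read as pairs of 150 bases. Of 45072 transcripts found by name in TAIR10.1, 99.6% have the same span, exon number and length there, among them all 28 of the clade (32 are annotated), so TAIR10.1 exons and sequence were used.

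There are no counts in the file, so depth came from the spacing of low values, with depths of 15 to 30 M fragments tried. At the depths taken, 56.9% to 62.0% lay within 0.1 of a whole fragment, against 20% for evenly spread values, too few to recover counts. The 20% makes no allowance for the search over depths, and depths outside that range were not tried. Floors cover counting error only. Features with a mean of at least 1 FPKM were fitted with limma 3.58.1 (R 4.3.3) on log2(FPKM + 1), with trend and robust moderation and without covariates; calls had a p under 0.05 after Benjamini-Hochberg adjustment over all features, and adjusted p-values come from this fit unless the authors' table is named. Usage was tested with diffSplice. Splice choices were ratios of summed FPKM of rows that keep or remove an intron, or use either site, where both classes had values, the classes together were above 0 in every library and their sum averaged at least 1 FPKM. With 3 against 3 an exact permutation test cannot go below 0.1. The fits were tested on simulated data. Python 3.11.15, numpy 2.4.6, pandas 2.3.3, scipy 1.17.1, matplotlib 3.10.9 and data.table, version 1.17.8, were used.

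The members, lists and tests were chosen with earlier results of these data known. Every clade transcript with a mean of at least 1 FPKM in a genotype, and every one the authors mark, is named; of the partners and targets, the 4 with the smallest adjusted p were to be named with values, and SVP and TSF were added after their values were seen. The 3 genes most like FLC were taken by Pearson's r. Alternatives were another pseudocount (0.1), no filter, a filter at 5 FPKM, cyclic loess scaling, an adjustment for gene length, plain empirical Bayes, the replicate number as a block and each library left out. The adjustment for gene length removed from each library, before the fit, a smooth curve of its deviations on log2 length.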

Additional observations from a re-analysis of the deposited data

How the results depend on the processing

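FLC, FLM, MAF2 and MAF4 passed as lower under every alternative that kept them. A filter at 5 FPKM removed FLC and MAF4 and so left 2 of the 4 clade genes called, and it left 1 of the 4 clade transcripts called. With each library left out in turn, 4 to 5 clade genes and 3 to 4 clade transcripts were called. For isoform usage 1 clade gene was called; the count was 2 without a filter (MAF3 and MAF4), 0 with the filter at 5 FPKM, 0 under cyclic loess scaling and 0 to 1 with each library left out. Splice choices without overlap numbered 6, 10 with 0.1 FPKM added to each class (the added ones in MAF4) and 6 to 9 with a library left out. In the fit over all splice choices, 2 MAF4 choices that share the same rows passed with 1 FPKM added (adjusted p = 0.016). Both rest on MAF4.5, which averaged 0.126 FPKM in cdc5 and 0.057 in Col-0, less than the amount added. With that amount the ratio cannot separate the splice choice from the lower summed level of MAF4. Over all genes, those with a change in usage numbered 1187, 1836 without a filter and 417 with the filter at 5 FPKM. Genes lower and higher in cdc5 over the whole table numbered 4433 and 6594, 5145 and 5197 under cyclic loess scaling, and 4990 and 5589 with an adjustment for gene length. The difference in acceptor share was 13.4 percentage points in MAF2 and 11.5 in MAF3, and 6.03 in MAF2 and 0.10 in MAF3 between rows that share every other splice site. Cyclic loess scaling turned the log2 fold changes of SVP (-0.0065) and AGL16 (-0.0029), and an adjustment for gene length that of AGL16 (-0.00063). Neither gene had passed. Leaving out a library turned uncalled transcripts, whose log2 fold changes then ranged from -0.86 to 0.0031 for FLM.11, -0.34 to 0.13 for FLM.2, -0.54 to 0.061 for FLM.8, -0.0040 to 0.21 for MAF2.2 and -0.23 to 0.11 for MAF3.2. TEM1 passed without cdc5 replicate 2 (-0.28, adjusted p = 0.021). Correlations of deviations were 0.043, 0.059 and 0.004 between same-numbered libraries of the genotypes and -0.072 to 0.032 between those of different number. All were small, and the numbers were not taken to pair samples. With the replicate block FLC.1 (limma adjusted p = 0.10) and the usage of MAF3 (0.065) no longer passed. The count of clade genes with a change in usage was then 0, and transcripts higher over the whole table numbered 2989 in place of 4898. The cause of these changes was not tested, apart from the filters, which remove genes. Depth limits what can be read of MAF4 in cdc5, with rows of at most 0.590 FPKM, and of FLM.7 in Col-0, at the level of a few fragments.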
